A study of Mus musculus with 4 samples.

Results

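The replication-dependent histone genes were examined for Smad1 occupancy in differentiating mouse embryonic stem (ES) cells. They were taken as the protein-coding genes of the GENCODE M21 annotation with a symbol that begins with Hist1h, Hist2h, Hist3h or Hist4, which gave 67 of 21938 genes. By histone type they comprised 6 H1, 18 H2A, 18 H2B, 12 H3 and 13 H4 genes. ChIP–seq for Smad1, a transcription factor activated by BMP signalling, was carried out on day 4 embryoid bodies (EBs) that had been dissociated and reaggregated. The cells were of the GFP-Bry ES cell line, in which GFP is knocked into the Brachyury locus, and were labelled as C57BL/6. For 24 h they received either the vehicle DMSO or the canonical Wnt inhibitor IWR-1 at 10 µM, and the comparison asks how Smad1 binding depends on that pathway. Each treatment had 1 Smad1 ChIP library and 1 input library from bulk EBs of a single cell line, so that differences between the treatments have no replicate check, no p-value is given and cell types within the EBs cannot be told apart.

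Histones package DNA into nucleosomes, each wound around a core of H2A, H2B, H3 and H4, while the linker histone H1 binds where DNA enters and leaves. The replication-dependent genes are switched on in S phase to supply histones for newly copied DNA, and they lie in clusters of many near-identical copies. Most lack introns, and their messenger RNAs end in a conserved stem-loop instead of a poly(A) tail. Stem-loop binding protein and the U7 snRNP recognise and cut this 3′ end. The largest clusters share their chromosomal neighbourhood with many tRNA genes, which are transcribed by RNA polymerase III.

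The data were 5 lists of peak positions. The authors called peaks with MACS and with QESEQ. MACS gave 15927 peaks for DMSO and 7815 in a second list, and QESEQ gave 26070 for DMSO and 16261 for IWR-1. The authors' list of common DMSO sites held 10466 intervals. Sample labels and list contents disagree. The DMSO lists were recognised by coordinates, since every common site was an interval of the DMSO QESEQ list and overlapped a peak of the DMSO MACS list, although the common and DMSO MACS lists are filed under the DMSO input and the DMSO QESEQ list under the IWR-1 input. The DMSO lists also carry dmso in their own names. For IWR-1, the QESEQ list is filed under its own ChIP. The second MACS list is filed under the DMSO ChIP but carries iwr1 in its own name, and it was taken as IWR-1. Read counts are not part of the lists, and the depth of each peak is therefore unknown. MACS scores rank peaks within their own list.

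Sequences at 4 of the peaks near histone genes are shown first, read from GRCm38, because the calls described below fall on very different kinds of DNA. The first is the tRNA-Met gene n-TMcat9 (chr13:23530348-23530419, minus strand) upstream of Hist1h4h, with 30 bp on either side and the 72 bp of the tRNA gene in capitals.

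n-TMcat9: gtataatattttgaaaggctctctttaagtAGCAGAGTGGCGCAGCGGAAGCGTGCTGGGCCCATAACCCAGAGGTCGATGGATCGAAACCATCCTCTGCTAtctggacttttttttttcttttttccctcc

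The tRNA B box, an internal promoter element, was searched as GTTCGANNC. This gene carries GATCGAAAC from base 52, which departs from the searched letters at the second base, and a run of 10 T begins 8 bp after the gene. The second sequence is the central 200 bp of the merged DMSO calls (chr13:23604049-23604248, strand of Hist1h2be) at the only common site near a histone gene that is clear of tRNA genes. It lies in an intron of the Hist1h2be model, and a run of at least 7 A is in capitals.

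Hist1h2be intron: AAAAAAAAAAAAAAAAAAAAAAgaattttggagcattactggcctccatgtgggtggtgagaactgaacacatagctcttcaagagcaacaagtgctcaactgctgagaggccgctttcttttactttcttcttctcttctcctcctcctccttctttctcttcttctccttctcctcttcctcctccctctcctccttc

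The third is the central 200 bp of a DMSO MACS peak within the coding sequence of Hist1h2an (chr13:21786959-21787158, strand of the gene), with the GC-rich Smad sequence GGCGCC in capitals, which occurs here as adjacent copies.

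Hist1h2an coding sequence: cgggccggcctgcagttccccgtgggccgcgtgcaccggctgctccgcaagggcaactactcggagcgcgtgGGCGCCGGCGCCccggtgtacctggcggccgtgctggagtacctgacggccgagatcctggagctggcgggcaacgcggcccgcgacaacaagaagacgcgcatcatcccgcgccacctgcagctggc

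The fourth is the promoter of Hist1h3i, the 250 bp before the RefSeq start (chr13:21783398-21783647, minus strand, GRCm38.p6). The first 185 bp printed lay in a DMSO QESEQ peak. Capitals mark the letters CCAAT and TATAAA, wherever they occur. The CCAAT nearer the gene start lies outside the peak. The Smad sequence CAGACA lies inside the peak on the other strand, printed as tgtctg, and is not capitalised.

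Hist1h3i promoter: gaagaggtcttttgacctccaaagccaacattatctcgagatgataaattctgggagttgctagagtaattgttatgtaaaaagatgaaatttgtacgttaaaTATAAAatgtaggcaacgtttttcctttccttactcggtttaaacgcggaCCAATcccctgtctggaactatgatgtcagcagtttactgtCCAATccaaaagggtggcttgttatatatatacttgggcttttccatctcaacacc

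The members showed the known build of these genes. Their median length was 539 bp against 17425 bp for all protein-coding genes, and the main transcript had 1 exon in 65 of 67. The stem-loop, searched on the gene's strand as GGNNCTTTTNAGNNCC, lay within 150 bp after the stop codon in 63 of 67, and the exceptions were Hist1h2an, Hist1h3g, Hist1h4a and Hist2h2be. The most frequent forms are given because they carry the 3′ end, with the 4-base loop in capitals.

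Stem-loop of 41 members: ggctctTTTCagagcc

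Stem-loop of 9 members: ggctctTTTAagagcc

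Stem-loop of 8 members: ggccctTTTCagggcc

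Of the members, 54 lay on chromosome 13 and 13 elsewhere. A gap of more than 100 kb between neighbours was taken to part clusters. The first chromosome 13 cluster (chr13:21715763-21837530) held 18 genes over 122 kb, the second (chr13:22035164-22043676) held 5 over 8.51 kb, and the third (chr13:23531050-23764406) held 29 over 233 kb, among them the 5 H1 genes other than Hist1h1b. The fourth was the pair Hist1h2ba and Hist1h2aa, over 1.08 kb. Chromosome 3 held 10 genes over 50.3 kb (chr3:96219865-96270132), chromosome 11 held Hist3h2ba and Hist3h2a, and chromosome 6 held Hist4h4.

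Few histone genes had a Smad1 site when the whole gene and 2 kb on either side were searched, a window that grows with gene length. Of the 67 members, 2 had a common DMSO site within 2 kb of the gene, 2.99% (95% exact binomial interval 0.364 to 10.4), against 19.5% of all protein-coding genes. They were Hist1h4h, with a site at a tRNA gene, and Hist1h2be, with a site in an intron. Clear of tRNA genes the count was 1 of 67, 1.49% (0.0378 to 8.04), against 19.2%. The intervals cover counting error over genes only, and neighbouring members share peaks.

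Each caller alone gave few more calls. The DMSO MACS list had a peak within 2 kb of 4 members, 5.97% (1.65 to 14.6), against 25.1% of all genes, and the DMSO QESEQ list at 6, 8.96% (3.36 to 18.5), against 36.5%. The IWR-1 QESEQ list had one at 7 members, 10.4% (4.3 to 20.3), against 27.1%. The second MACS list had a peak at 1 member, 1.49% (0.0378 to 8.04), against 14.5%. All 5 lists thus lay below their background when the whole gene and 2 kb on either side were searched.

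Gene length moved with this gap. A longer gene offers a longer window, and among the 3244 genes of at most 4 kb the common list reached 4.22%, the DMSO MACS list 5.76%, the DMSO QESEQ list 10.3%, the second MACS list 3.08% and, for IWR-1, the QESEQ list 7%. The 64 members of that length had 1, 3, 5, 1 and 7 called genes in the same order, or 1.56%, 4.69%, 7.81%, 1.56% and 10.9%. Members were thus below the short genes in the common, DMSO and second MACS lists and above them in the IWR-1 QESEQ list. Each share of short genes lies inside the interval given above for all members. The 1 short member with a common site was Hist1h4h, whose site lies at a tRNA gene. Shares clear of tRNA genes were not counted for short genes.

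The start of the gene gives a window of equal size for every gene. Within 2 kb of it, common sites were found at 1 of 67 members, 1.49% (0.0378 to 8.04), against 4.52% of all genes, and clear of tRNA genes at 0 of 67 (0 to 5.36) against 4.32%. The DMSO MACS list had 3 members, 4.48% (0.933 to 12.5), against 5.93%, and the DMSO QESEQ list 5, 7.46% (2.47 to 16.6), against 9.37%. The second MACS list had 1, 1.49%, against 3.15%. With IWR-1 the QESEQ list had 6 members, 8.96% (3.36 to 18.5), against 5.86%. Each of these intervals holds its background value. At other distances from the start the order changed for the single callers, with 4.48% of members against 3.67% of all genes in the DMSO MACS list at 1 kb, and 14.9% against 11.3% at 5 kb. In the common list it changed at 5 kb, with 8.96% against 8.53%. Clear of tRNA genes, the DMSO MACS shares were 2.99% against 3.5% at 1 kb and 8.96% against 11% at 5 kb. The common list then gave 2.99% against 8.25% at 5 kb. In the DMSO QESEQ list, members clear of tRNA genes were above all genes at 5 kb, with 19.4% against 18.5%. No peak of any list overlapped a member's start itself, 0 of 67 (0 to 5.36), where all genes gave 0.538% in the second MACS list to 1.41% in the DMSO QESEQ list.

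**Figure D1:**
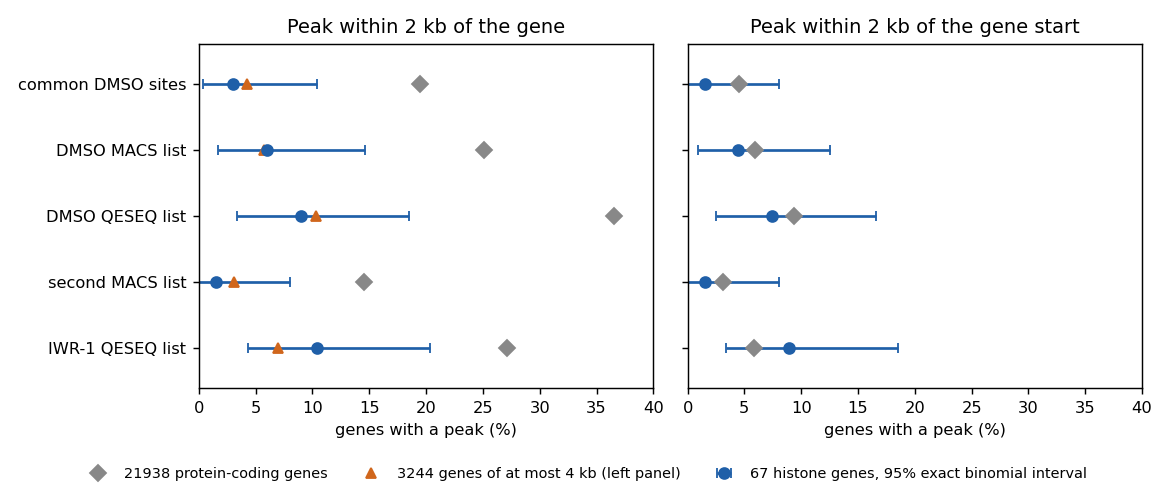
Share of genes (%, horizontal axis) with a peak within 2 kb of the gene (left) or of its start (right) in each of the 5 lists. Circles are the 67 histone genes with 95% exact binomial intervals, diamonds all 21938 protein-coding genes, and triangles, on the left only, the 3244 genes of at most 4 kb. In the left panel every diamond lies beyond its interval and every triangle inside it, and in the right panel every diamond lies inside it.

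Taking all lists together, 12 members had a peak of any list within 2 kb of the gene, 17.9% (9.61 to 29.2), against 45.7% of all genes, and 10 within 2 kb of the start, 14.9% (7.4 to 25.7), against 12.8%. By type, the 12 comprised 0 of 6 H1 genes, 3 of 18 H2A, 3 of 18 H2B, 4 of 12 H3 and 2 of 13 H4 genes. The interval for H3, 33.3% (9.92 to 65.1), overlaps that of every other type, and that for H1 runs from 0 to 45.9%. By cluster, they were 5 of 18 genes in the first chromosome 13 cluster, 6 of 29 in the third and 1 of 10 on chromosome 3. The second cluster of chromosome 13, the Hist1h2ba and Hist1h2aa pair and the members on chromosomes 11 and 6 had none. In all, 55 members had no peak in any list within 2 kb.

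The 12 members drew on 8 separate loci, since several peaks lay within 2 kb of a pair of neighbours. Of the 8 loci, 5 were called in 1 list only and 6 by 1 caller only. A single locus, that of the tRNA gene, was called in all 5 lists.

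The H4 gene Hist1h4h, which encodes a core histone and opens the third chromosome 13 cluster (chr13:23531050-23531519, plus strand), had the strongest call. The common site (chr13:23530122-23530616) covered n-TMcat9, whose start lies 631 bp from that of Hist1h4h and which is transcribed away from it. The DMSO MACS peak scored 1263.03, rank 34 of 15927 and the 99.8th percentile of its list. The second MACS list had a peak with a score of 635.02, rank 105 of 7815 and the 98.7th percentile, and the IWR-1 QESEQ list also called it. Taking the calls together, the centre of the locus lay upstream of Hist1h4h, at -674 bp from its start, and 95.6% of the 51-base stretches in it occurred once in the genome. Hist1h4h was the only member with a tRNA gene within 2 kb.

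The H2B gene Hist1h2be carried the other common site (chr13:23603904-23604342), called by both DMSO callers and by neither IWR-1 list. Its DMSO MACS peak scored 79.26, rank 4113 and the 74.2nd percentile, where the median common site stood at 52.8. The annotated gene is unusual, spanning 37455 bp over 2 exons, and its 378 bp of coding sequence lie at chr13:23585579-23585956. The site was 17947 bp from that coding sequence and the centre of the locus 16976 bp from the annotated start, so that the assignment rests on the long gene model. Measured from coding exons, no member had a common site clear of tRNA genes within 2 kb. The locus held a run of 29 A or T and 57.8% of it was repeat-masked. The run lay just outside the central 200 bp of the common site itself, which is narrower than the merged calls printed above, while 76.1% of all common sites held at least 7 A in theirs, against 15.1% of windows 2 kb to either side.

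Other DMSO calls came from a single caller. At Hist1h2an, an H2A gene, the DMSO MACS peak (chr13:21786927-21787189) scored 52.08, the 8.73rd percentile, where the lowest score in the list was 50. It lay in the coding sequence and 271 bp from the divergent H2B gene Hist1h2bp. Its base composition was 71.9% G and C, and 0% of its 51-base stretches were single-copy, which means that no read of 51 bases within it could be assigned to this gene alone. Upstream of the H3 gene Hist1h3i, the DMSO QESEQ peak (chr13:21783463-21783927) was centred at -325 bp from the start, held a run of 21 A or T, and was 100% single-copy. The other DMSO caller called neither locus.

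The IWR-1 calls other than that at the tRNA gene were all made by QESEQ alone. The end of the H2A gene Hist1h2af, which lies upstream of the H3 gene Hist1h3g, was called in DMSO (chr13:23534016-23534494) and IWR-1 (chr13:23534006-23534531). It held a run of 27 A or T. The 3′ untranslated region of the H2B gene Hist1h2bh, upstream of the H3 gene Hist1h3f, was called with IWR-1 only (chr13:23542257-23542610), and 98.9% of it was repeat-masked. A peak downstream of the H4 gene Hist1h4n and the H2A gene Hist1h2ap (chr13:21830840-21831249) was likewise an IWR-1 call, with 14.4% single-copy stretches. On chromosome 3 a DMSO QESEQ peak (chr3:96236952-96237463) lay 644 bp past the end of the H3 gene Hist2h3c2.

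**Figure D2:**
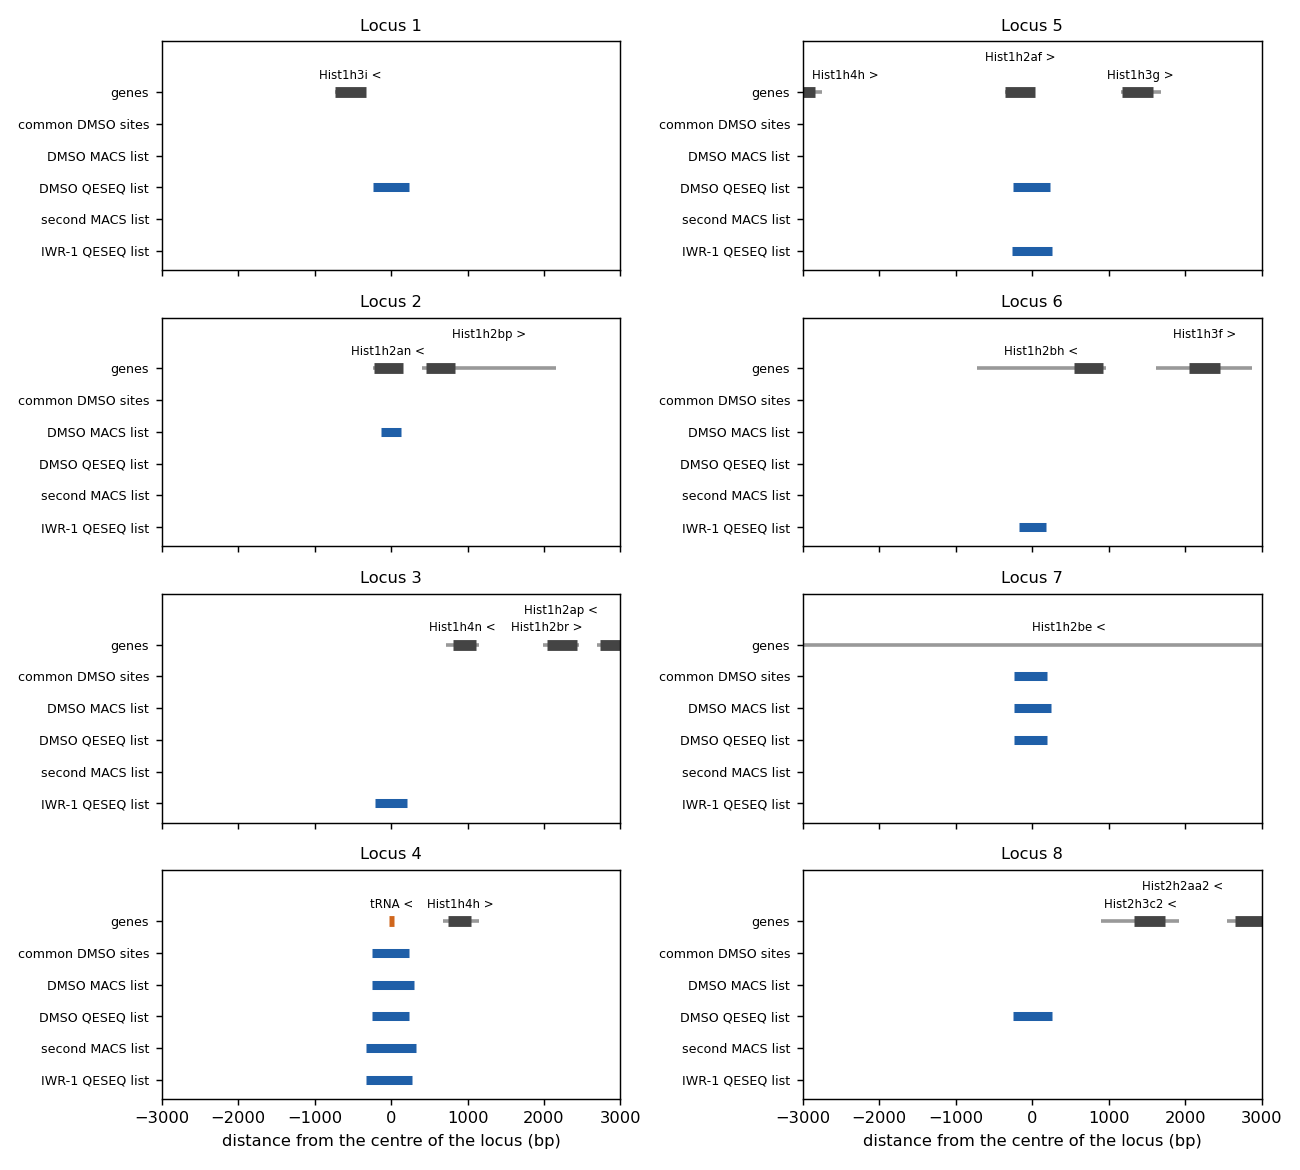
The 8 loci, drawn by distance from the centre of each locus (bp, horizontal axis). The top row of each panel shows histone genes as grey lines with coding sequence as dark boxes and the tRNA gene in orange, with > for the plus and < for the minus strand, and the rows under it show the peaks of the 5 lists in blue. Locus 4, at the tRNA gene beside Hist1h4h, is the only one with a peak in every row, and locus 7, in the Hist1h2be intron, has peaks in the DMSO rows only.

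The other members outside chromosome 13 had no peak in any list within 2 kb. On chromosome 3 these were Hist2h2ab, Hist2h2ac, Hist2h2aa1 and Hist2h2aa2, which encode H2A, Hist2h2be and Hist2h2bb, which encode H2B, Hist2h3c1 and Hist2h3b, which encode H3, and the H4 gene Hist2h4. The nearest common site to a start in this cluster was 52029 bp from that of Hist2h2bb. Hist3h2ba and Hist3h2a were 145213 and 139448 bp from a common site, and Hist4h4 was 216607 bp away.

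Most called members were called in 1 treatment only. A DMSO peak and no IWR-1 peak was found within 2 kb of 5 members, 7.46% (2.47 to 16.6), against 15.6% of all genes, and an IWR-1 peak without a DMSO peak at 4, 5.97% (1.65 to 14.6), against 6.25%. Peaks of both treatments were found at 3 members, 4.48% (0.933 to 12.5), against 23.9%. The shares of all genes again come from windows that grow with gene length. Shares near the gene start or among short genes are not given for these classes, so the gaps cannot be told apart from gene length. The 5 were Hist1h3i, Hist1h2an, Hist1h2bp, Hist1h2be and Hist2h3c2, the 4 were Hist1h4n, Hist1h2ap, Hist1h2bh and Hist1h3f, and the 3 were Hist1h4h, Hist1h2af and Hist1h3g. No member was called in both IWR-1 lists and in no DMSO list. Of the 8 loci, 6 had a DMSO call, 4 an IWR-1 call and 2 both.

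The tRNA genes around the chromosome 13 clusters were called throughout, in contrast to the histone genes. From the first to the last member (chr13:21715763-23934851, 2.22 Mb) the annotation of NCBI for GRCm38 holds 77 of the 403 tRNA genes of the genome. None lies inside a cluster span, and 1 lies within 2 kb of a member. Common sites overlapped 70 of the 77, 90.9% (82.2 to 96.3). DMSO MACS called 74, DMSO QESEQ 76, the second MACS list 72 and IWR-1 QESEQ all 77, 100% (95.3 to 100). The share called among all 403 tRNA genes is not given here, so these values cannot be set against tRNA genes elsewhere. Of the 69 common sites in the region, 57 overlapped a tRNA gene, 82.6% (71.6 to 90.7), where the whole list had 2.04%. The remaining 12 amounted to 5.41 sites per Mb, against 3.76 per Mb over the genome.

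**Figure D3:**
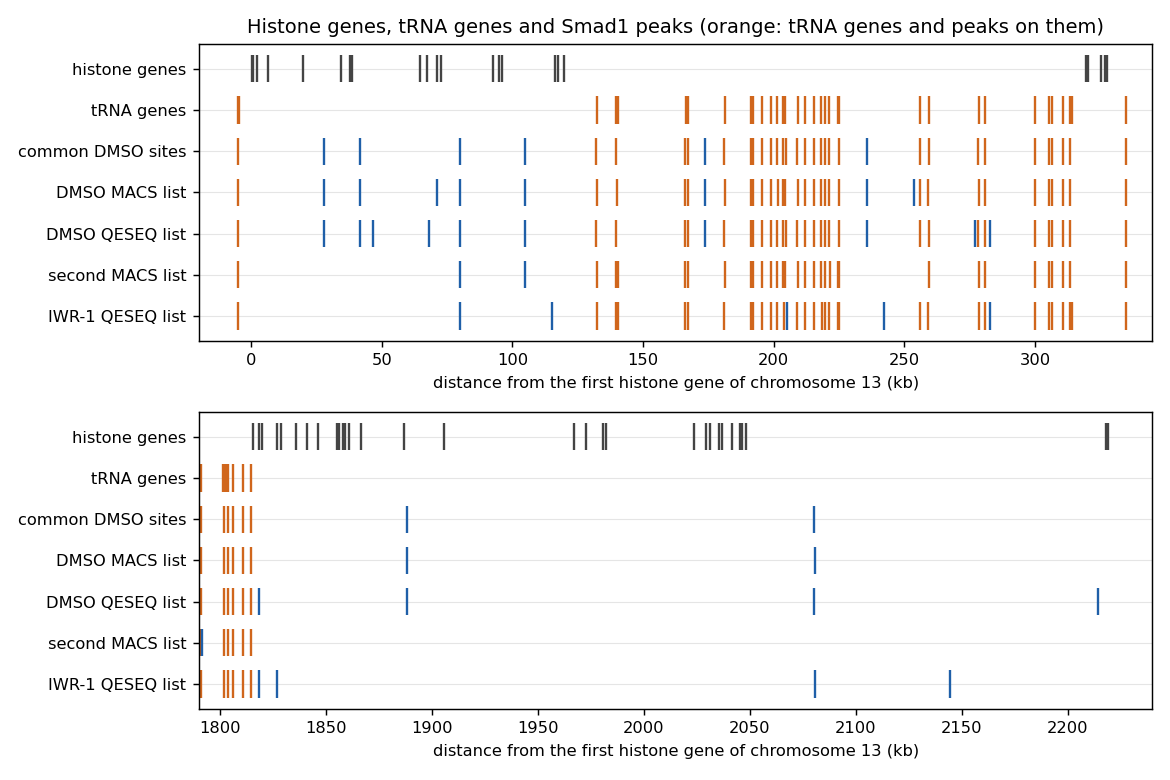
The stretches of chromosome 13 that hold the first and second clusters (top) and the other clusters (bottom), by distance from the first histone gene (kb, horizontal axis). Each tick is a gene or a peak, with histone genes dark, tRNA genes and peaks on them orange, and other peaks blue. The orange ticks recur in all 5 peak rows and lie outside the histone clusters, and 4 blue ticks of the common list lie within the first cluster. The stretch between the panels, which holds further tRNA genes, is not drawn.

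Histone genes lay nearer to a common site than genes in general, less so when sites at tRNA genes were left out. From the start of a member it was 28.1 kb in the median (quartiles 8.95 and 57.9 kb), against 62.3 kb for all genes, and for the 54 members on chromosome 13 it was 14.2 kb. Clear of tRNA genes the median was 49.3 kb, against 63.7 kb. Within 10 kb of the start, 18 members (26.9%) had a common site, against 14.2% of all genes, whereas 7 (10.4%) had one clear of tRNA genes, against 13.8%. Within 100 kb, 88.1% had a common site, against 63.3%, and 77.6% had one clear of tRNA genes, against 62.8%. Members had a tRNA gene within 10 kb of the start in 16.4% of cases, against 0.527% of genes on chromosomes with tRNA genes. Sites shared by neighbouring members enter these shares more than once.

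**Figure D4:**
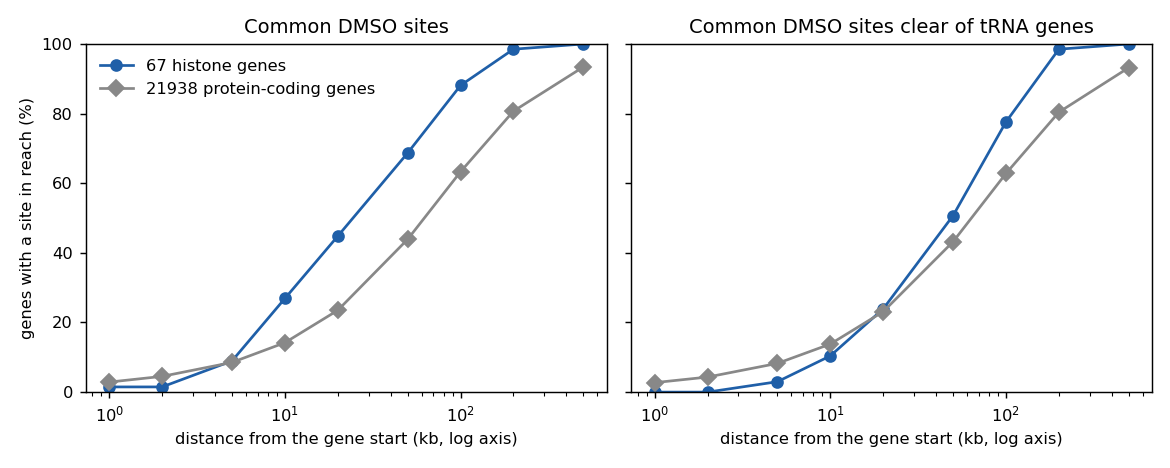
Share of genes (%, vertical axis) with a common DMSO site within a given distance of the gene start (kb, log axis), for all common sites (left) and for those clear of tRNA genes (right). Circles are the 67 histone genes and diamonds all 21938 protein-coding genes. On the left the histone genes run near all genes at 5 kb (8.96% against 8.53%) and above them from 10 kb. On the right they run below them up to 10 kb, near them at 20 kb and above them from 50 kb (50.7% against 43.2%).

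Within 20 kb of a member lay 19 common sites, of which 14 were at tRNA genes and 5 were clear of them. Their DMSO MACS scores differed, with percentiles of 96.9 to 99.8 at tRNA genes and 74.2 to 96.8 clear of them. All 14 at tRNA genes were called with IWR-1 by QESEQ, 100% (76.8 to 100), and in the second MACS list. Of the 5 clear sites, 1 was called with IWR-1 by QESEQ, 20% (0.505 to 71.6), and 2 in the second MACS list. Over the genome, 98.1% of the 214 common sites at tRNA genes and 35.7% of the 10252 others were called in the IWR-1 QESEQ list, and both values lie within the intervals given for the sites near histone genes.

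Apart from the Hist1h2be site, the clear sites all lay between genes of the first chromosome 13 cluster, beyond 2 kb of any member. That closest to a member was 2739 bp from the H2B gene Hist1h2bn (chr13:21757243-21757532, score 84.28) and had no IWR-1 call, and the call just inside the 2 kb limit was the peak 1776 bp past Hist1h2ap. A site 6191 bp from the H4 gene Hist1h4k (chr13:21743577-21744002) scored 112 and also lacked an IWR-1 call. The highest score, 214.8, belonged to a site 6414 bp from Hist1h2bp (chr13:21795628-21796027), which both IWR-1 lists called. The last, 8385 bp from the H4 gene Hist1h4m (chr13:21820533-21820820, score 99.07), was called in the second MACS list only. The third cluster, with 29 genes over 233 kb, held no clear common site other than that in Hist1h2be.

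Near-identical copies limit what short reads can show here. How the authors placed reads that match several positions is not given in the sources used here. A 51-base stretch, the tag size given to MACS, was counted as single-copy when it occurred once in the chromosomes of GRCm38 on either strand. Within the genes the share of single-copy stretches ranged from 0 to 100% with a median of 53.4%, and 30 of 67 genes had under 50%. In the 500 bp upstream the median was 100%, and with 2 kb on either side of the gene it was 87.1%. By type, the median share within the gene was 98.8% for H1, 26.9% for H2A, 58.7% for H2B, 42.9% for H3 and 61.3% for H4.

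Windows with under 50% single-copy stretches numbered 6, all in the first cluster: Hist1h2bq (0.677%), Hist1h2ao (3.16%), Hist1h4m (5.08%), Hist1h4n (28.5%), Hist1h2ap (3.66%) and Hist1h2br (0.543%). These are H2B, H2A and H4 genes in one order and then in the mirrored order. Among the 46 members with at least 80% single-copy stretches in the window, 2 had a common site, 4.35% (0.531 to 14.8), and 3 an IWR-1 QESEQ call, 6.52% (1.37 to 17.9). The shares of all genes were 19.5% and 27.1%, and those of genes of at most 4 kb were 4.22% and 7%. The part of repeated copies in these counts was not tested.

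**Figure D5:**
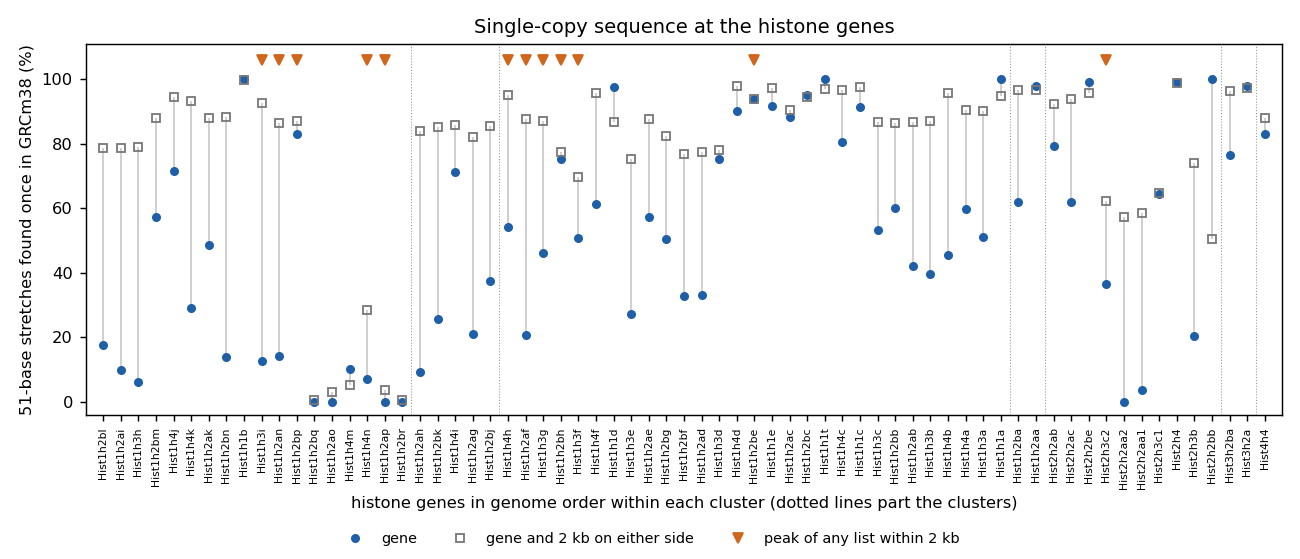
Share of 51-base stretches that occur once in GRCm38 (%, vertical axis) for each of the 67 histone genes in genome order, from the clusters of chromosome 13 to those of chromosomes 3, 11 and 6. Filled circles are the gene and open squares the gene with 2 kb on either side, and triangles at the top mark the 12 genes with a peak of any list within 2 kb. The 6 genes at the right end of the first cluster lie at 10.2% or lower on both measures, apart from the square of Hist1h4n at 28.5%.

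Promoters were searched for letters of elements known from histone genes, without regard to their distance from the start. A RefSeq promoter (250 bp before to 50 bp after the start, GRCm38.p6) on the same strand and within 1 kb of the GENCODE start was matched for 60 members. Both strands were searched, and 18 of the 60 promoters shared bases with that of a neighbour. CCAAT, the sequence that NF-Y binds, was present in 51 of 60 (85%) against 37.9% of 27025 RefSeq promoters, and TATAAA in 34 (56.7%) against 14.2%. CCAAT was found in all 48 matched promoters of H1, H2A, H2B and H3 genes and in 3 of 12 of H4 genes. The octamer ATTTGCAT, bound by Oct1, was found in 7 of 17 H2A and 6 of 16 H2B promoters and in none of the other types, with 1.75% over all promoters.

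Smad sequences were mixed in the same promoters. CAGACA was found in 28 of 60 (46.7%) against 21% of all promoters, GGCGCC in 9 (15%) against 12%, GGAGCC in 13 (21.7%) against 30.5%, and GTCTAGAC in 2 (3.33%) against 0.211%. The promoters with GTCTAGAC were those of the divergent neighbours Hist1h2an and Hist1h2bp, which overlap, and both hold the same 1 stretch of the genome. Matches of different sequences may share bases, and each was counted. At least 1 of the 4 was present in 41 promoters (68.3%), against 51.6%. By type this ranged from 4 of 10 H3 promoters to 15 of 17 H2A promoters. No member had a common site clear of tRNA genes within 2 kb of its start, so the letters are given as a description of the promoters only.

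Other genes of the pathway lie outside the clusters and are longer, with a median of 20466 bp for the first group. Of its 20 genes for histone transcription and 3′ processing, 6 had a common site within 2 kb of the gene, against the 19.5% of all genes given above. They were Casp8ap2, a component of histone locus bodies, Slbp, which encodes the stem-loop binding protein, Cpsf3, the nuclease that cuts histone pre-mRNA, the cell-cycle kinase Cdk2, its partner Ccne2, and Pou2f1, which encodes Oct1. Near the start, 1 of 20 had a common site, against 4.52% of all genes. It was that of Cpsf3 (chr12:21285826-21286326), which scored 199.41, the 96.6th percentile, and was called in both IWR-1 lists. The Slbp site (chr5:33648409-33649103) scored 80.81 and was called with IWR-1 by QESEQ. Npat, the coactivator of histone genes, had calls of each single DMSO caller and no common site.

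Histone chaperones, which carry histones to and from DNA, had common sites within 2 kb of 3 of 12 genes, 25% against 19.5% of all genes, with a median gene length of 25909 bp. They were Nasp, Hira and Atrx, of which Nasp had its site within 2 kb of the start (score 62.96) and no IWR-1 call at that site. Replacement histones, made also outside S phase and from genes outside the clusters, had 3 of 11, 27.3% against 19.5% of all genes. The median length of the 11 genes was 6051 bp. All 3 sites reached within 2 kb of the start, where the share of all genes was 4.52%. The genes were H1fx, an H1 variant with a score of 71.94, H2afz, which encodes H2A.Z, with 51.17, and H3f3b, which encodes H3.3, with 85.41. The H1fx site was centred 2216 bp from the start, and the H2afz score stood at the 4.85th percentile of its list. All 3 sites were also called in the IWR-1 QESEQ list, and that of H3f3b in the second MACS list too. Of 98 ribosomal protein genes, another group in high demand, 17 (17.3%) had a common site within 2 kb of the gene. All genes gave 19.5%, and genes of at most 4 kb gave 4.22%. Within 2 kb of the start, 11 (11.2%) had one, against 4.52% of all genes. With a median of 3400 bp against 539 bp, ribosomal protein genes are longer than the histone genes, so the 2 groups are not matched in length. Hfe, the only other protein-coding gene within the cluster spans of chromosome 13, had no peak in any list within 2 kb.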

How the data were processed

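Reads were mapped by the authors to mm10 using Bowtie2, PCR duplicates were discarded, and MACS and QESEQ were each run once per treatment. The submitters' processing notes name CASAVA 1.8, Bowtie2 2.1.0 and MACS 1.0.1. Peak positions and, for MACS, a score per peak were deposited by the authors. Positions were read as counted from 0 and are given from 1. Depth per peak is unknown.

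Peaks within 2 kb of GENCODE M21 genes were counted, with an overlap of at least 1 bp. Intervals of shares are 95% Clopper-Pearson (exact binomial). With 1 library per treatment no test was made. Sequences and tRNA genes came from NCBI's GRCm38. Motifs were searched on both strands. All 67 members had a RefSeq gene match by identifier, some near-identical members to the same gene.

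The members and lists were chosen with earlier results of these data known. The rule for named genes took members with a common site, members outside chromosome 13, members called in both IWR-1 lists and no DMSO list, and counted the pathway lists. The other called or cited members, the genes of at most 4 kb, the coding-exon distance and the 80% single-copy limit were chosen after their values were seen.

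Python 3.11.15, numpy 2.4.6, scipy 1.17.1 and matplotlib 3.10.9 were used. The overlap and single-copy steps were tested on simulated data.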

Additional observations from a re-analysis of the deposited data

How the results depend on the processing

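No paired analysis was possible because each treatment had 1 library. Of 73 alternatives to 9 results, 55 stayed within the binomial interval of the main value and 18 moved beyond it. This tally is no measure of stability. Results that rest on 1 or 2 sites have intervals such as 0 to 97.5% or 1.26 to 98.7%, which hold almost any alternative. The interval of the score percentile, 73.5 to 74.9, counts the peaks of the list as trials although the value is that of 1 site. The share of members with a common site rose to 10.4% within 5 kb of the gene, and the share clear of tRNA genes was 0% within 2 kb of the gene start, within 2 kb of the longest coding exon and with scores of at least 100. Members outside chromosome 13 gave 0% for common sites and for IWR-1 QESEQ calls, with or without tRNA genes. Each is 0 of 13, with an interval of 0 to 24.7% that holds the main value. The share with an IWR-1 QESEQ call, 10.4%, and that clear of tRNA genes, 8.96%, were both 2.99% for peaks that overlap the gene itself. With the second MACS list, or with QESEQ peaks that overlap it, they were 1.49% and 0%. The share of common sites at members that were called with IWR-1, 50% of 2, was 100% of 1 with scores of at least 100. The score percentile of clear sites, 74.2, was 77 within 5 kb and 50.7 for the median score of all clear DMSO MACS peaks at members. The single clear site had no run of 7 A in its central 200 bp and 1 in the whole site, 0% and 100%. With scores of at least 100 no clear site was left to compare with IWR-1. The causes were not tested. Single libraries, 1 or 2 sites per result and near-identical gene copies limit these values.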
